A study of Homo sapiens with 2 samples.

Results

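Developmental transcription factors of the homeobox, SOX and T-box families were followed in 3 human cell lines that differ in 2 chromatin regulators. The members are every gene whose symbol is HOXA, HOXB, HOXC, HOXD, PAX, sine oculis homeobox (SIX2 and so on), TBX, IRX, LHX, DLX, MSX or SOX with a number, or NKX with its paired number. This rule uses names only, and it gave 122 of the 33694 genes in the deposited matrix. They comprise 39 HOX genes (11 HOXA, 10 HOXB, 9 HOXC and 9 HOXD), 19 SOX, 14 NKX, 13 TBX, 9 PAX, 8 LHX, 6 sine oculis homeobox, 6 IRX, 6 DLX and 2 MSX genes.

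The lines were C1-sgEED, in which EED was knocked out, C1-sgKMT2D, in which KMT2D was knocked out, and C1-sgControl with a control guide. All were made by gene editing of C1 cells, described by the submitters as stably epithelial cells derived from HMLER, a mammary epithelial line that was immortalised and then transformed with an oncogenic RAS. All were grown in the same mixture of mammary epithelial medium, DMEM and F12 with insulin, EGF and hydrocortisone. The lines were stained with hashtag antibodies and read in 1 pooled 3' gene expression library, which makes a line 1 sample and leaves differences between lines with no replicate check. Clones were mixed, per the library title, and how many made up a line is not stated, so a gene seen in a minority of cells may belong to 1 clone or to cells of several. The design asks whether loss of either regulator makes an epithelial line plastic, and many genes of these families are known targets of the Polycomb system that EED belongs to. Which members are targets in these cells was not measured.

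Homeobox, SOX and T-box proteins bind DNA and set the identity of tissues in the embryo. HOX genes lie in 4 clusters and specify position along the body axis, with low numbers acting towards the head and high numbers towards the tail and the limb tips. In most adult cells the genes of other tissues are held silent by Polycomb repressive complex 2 (PRC2), in which EED binds the H3K27me3 mark and stimulates the catalytic subunit EZH2. KMT2D adds methyl groups to a lysine of histone H3 at enhancers and so works on the side of active genes. Breast epithelium normally uses several members, among them SOX9 in progenitor cells and TBX3 in gland formation.

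PRC2 is recruited to promoters rich in CG dinucleotides. The promoters of 4 members that had few or no UMIs in C1-sgControl, and of IRX2, which had many in every line, are shown for that feature. All 4 were also among the members higher in C1-sgEED than in C1-sgControl, so they do not stand for every member low in the control. Each runs from 250 bases before to 50 after the RefSeq start on GRCh38.p14, 5' to 3' on the gene's strand, with each CG in capitals. CG reads the same on both strands, and 96.0% of the 35116 promoters in the table hold at least 1, with a median of 14.
HOXD11, chr2:176107030-176107329, plus strand: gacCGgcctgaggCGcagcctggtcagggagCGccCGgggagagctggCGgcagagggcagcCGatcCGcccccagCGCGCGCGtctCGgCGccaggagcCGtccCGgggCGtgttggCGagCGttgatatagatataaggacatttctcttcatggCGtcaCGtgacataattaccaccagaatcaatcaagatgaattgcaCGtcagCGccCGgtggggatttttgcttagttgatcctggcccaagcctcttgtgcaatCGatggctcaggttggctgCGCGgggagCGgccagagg
HOXD10, chr2:176116528-176116827, plus strand: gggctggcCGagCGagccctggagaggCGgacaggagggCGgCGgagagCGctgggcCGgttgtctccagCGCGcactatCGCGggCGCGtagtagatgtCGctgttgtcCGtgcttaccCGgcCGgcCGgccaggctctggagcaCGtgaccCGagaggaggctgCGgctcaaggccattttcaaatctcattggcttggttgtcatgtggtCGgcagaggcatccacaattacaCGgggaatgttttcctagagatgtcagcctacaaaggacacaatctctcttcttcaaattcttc
PAX2, chr10:100735146-100735445, plus strand, the more upstream of 2 starts: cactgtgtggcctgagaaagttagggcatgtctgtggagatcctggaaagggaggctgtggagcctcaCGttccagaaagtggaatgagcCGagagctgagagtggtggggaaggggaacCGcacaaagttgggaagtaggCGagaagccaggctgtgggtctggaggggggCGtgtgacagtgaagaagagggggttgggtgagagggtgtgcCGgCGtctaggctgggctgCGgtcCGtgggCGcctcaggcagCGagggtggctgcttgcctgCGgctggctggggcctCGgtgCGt
NKX6-1, chr4:84499243-84499542, minus strand: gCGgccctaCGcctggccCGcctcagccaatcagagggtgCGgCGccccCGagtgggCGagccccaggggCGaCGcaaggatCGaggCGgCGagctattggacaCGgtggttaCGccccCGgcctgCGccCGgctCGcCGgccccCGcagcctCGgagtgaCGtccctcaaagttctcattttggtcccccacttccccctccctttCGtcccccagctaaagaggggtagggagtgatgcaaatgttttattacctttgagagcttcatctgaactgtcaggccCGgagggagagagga
IRX2, chr5:2751628-2751927, minus strand: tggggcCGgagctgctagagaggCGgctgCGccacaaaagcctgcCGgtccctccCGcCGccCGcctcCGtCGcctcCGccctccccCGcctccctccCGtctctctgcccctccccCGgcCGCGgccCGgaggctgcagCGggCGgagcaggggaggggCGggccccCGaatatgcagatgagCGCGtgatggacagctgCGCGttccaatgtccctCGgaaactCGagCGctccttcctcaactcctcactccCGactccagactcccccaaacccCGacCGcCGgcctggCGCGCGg
The 4 promoters of members low in C1-sgControl held 27 CG (HOXD11), 23 (HOXD10), 14 (PAX2) and 24 (NKX6-1), and that of IRX2 held 34. PAX2 sits at the median of the table, and the others have more CG than 64.2% to 84.4% of its entries. The count does not separate IRX2 from the members that were low. Only 74 of the 122 members had an entry, so the members were not compared with other genes by this measure.

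After filtering, 2338 C1-sgEED, 2348 C1-sgKMT2D and 1720 C1-sgControl cells carried 1 hashtag, with 10256770, 13957344 and 9927122 UMIs. Their cells had a median of 3915, 5526 and 5672.5 UMIs. Filtering took out 6.78% of C1-sgEED, 5.89% of C1-sgKMT2D and 27.2% of C1-sgControl cells. Cells with more VIM than KRT17 UMIs are called VIM-rich and those with more KRT17 than VIM UMIs KRT17-rich; VIM is a mesenchymal filament protein and KRT17 a basal keratin. VIM-rich cells were 1195 of C1-sgEED (51.1%), 1164 of C1-sgKMT2D (49.6%) and 71 of C1-sgControl (4.13%). KRT17-rich cells were 1111, 1157 and 1633. These are ranges of a score and not cell types: 144, 301 and 119 cells of the lines had less than 1.5-fold between both genes. Leaving out VIM, which sets the ranges, 9 mesenchymal markers summed to 1038 CPM in VIM-rich cells of C1-sgEED and 813 CPM in those of C1-sgKMT2D, but 159 CPM in the 71 control cells. Leaving out KRT17, 9 epithelial markers summed to 1215 CPM, 2038 CPM and 6323 CPM in the same cells. Those control cells hold so few UMIs that 3 of them make 7.25 CPM, and they enter no comparison.

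The EED transcript stood at 13.4 CPM in C1-sgEED cells against 13.6 CPM in C1-sgControl, and the KMT2D transcript at 5.02 CPM in C1-sgKMT2D against 4.63 CPM in C1-sgControl. Within C1-sgEED, EED was called lower in VIM-rich cells, with 5.74 CPM against 20.1 CPM in KRT17-rich cells, and KRT17-rich C1-sgControl cells had 13.4 CPM. KMT2D, which is not the gene knocked out in this line, was called lower there too, with 1.70 against 4.23 CPM on 8 and 23 UMIs. Of all genes, 8.16% were lower in that comparison. A 3' tag can lie outside the edited stretch, so these levels check the labels little. Levels are CPM (a gene's UMIs scaled to the gene UMIs of the group), and a 3' count gives 1 UMI per captured molecule whatever the length. Intervals in parentheses are exact 95% intervals that cover counting error only. Members are called higher or lower at 1.5-fold or more on log2((CPM + 1)/(CPM + 1)), with no filter on low values, so all 122 enter each count; the added 1 CPM makes the bound stricter for low levels. A line's level cannot tell more cells with the transcript from more transcript per cell.

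More members were detected in C1-sgEED than in either other line, while their summed level lay between those of C1-sgKMT2D and C1-sgControl. With every line thinned to 9927122 UMIs, 74 members had more than 3 UMIs in C1-sgEED, 61 in C1-sgKMT2D and 58 in C1-sgControl. Over all genes, the same numbers were 14917, 13974 and 14039. The members summed to 590 CPM in C1-sgEED, 502 CPM in C1-sgKMT2D and 628 CPM in C1-sgControl, where SOX4, IRX2 and SOX9 make up much of the sum. No UMI of 28 members was read in any line, among them SOX1, SOX3, SOX10, SOX11, PAX1, PAX3, HOXD12 and HOXD13. A further 33 stayed below 1 CPM in every line, and 61 reached 1 CPM in at least 1 line.

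Against C1-sgControl, 25 members (20.5%) were higher in C1-sgEED, where 6.64% of all genes were, and 6 were lower (background 3.2%). In C1-sgKMT2D, 8 were higher (background 3.65%) and 7 lower (background 5.97%). Without mitochondrial and ribosomal protein genes in the total, 14 were higher (background 5.12%), and with a pseudocount of 0.5 CPM 15 higher (background 5.1%). Both comparisons use the same control cells. Between the knockouts, which share no cells, 1 member was higher in C1-sgKMT2D than in C1-sgEED (background 1.53%) and 21 were lower (background 7.46%). Genes at 0 in both groups are part of these backgrounds. A bound of 1 CPM on the mean of the groups, which a gene can pass through its higher group alone, left 53 members and 12708 genes for C1-sgEED over C1-sgControl. Of these, 16 members were higher (background 13.9%) and 5 lower (background 7.59%). For C1-sgKMT2D over C1-sgControl, 7 of 47 members were higher (background 8.26%) and 7 lower (background 14.6%). For C1-sgKMT2D over C1-sgEED, 1 of 53 was higher (background 3.41%) and 14 lower (background 16.2%). The median log2 ratio of C1-sgEED over C1-sgControl was 0.11 over all members and 0.00 over all genes.

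HOX genes, 39 of the 122 members, made up 11 of the 25 members higher in C1-sgEED (28.2% of HOX genes, background 6.64%), and 1 HOX gene was lower. By position in the clusters, 7 of 16 posterior genes (numbers 9 to 13), 3 of 11 central genes (5 to 8) and 1 of 12 anterior genes (1 to 4) were higher. In C1-sgKMT2D 2 of 39 HOX genes (5.13%, near the background of 3.65%) were higher than in C1-sgControl and 0 lower. HOXB9 (ENSG00000170689, GRCh38 chromosome 17, 48621159 to 48626356, minus strand), a posterior gene active in the trunk and in mammary development, had 13.8 CPM (11.7 to 16.3) in C1-sgEED, 5.02 CPM (3.91 to 6.34) in C1-sgKMT2D and 2.92 CPM (1.96 to 4.20) in C1-sgControl. The C1-sgEED interval lies above those of the other lines, which overlap each other. The level was 4.74-fold higher (3.16 to 7.33) in C1-sgEED and 1.72-fold higher (1.10 to 2.75) in C1-sgKMT2D than in C1-sgControl.

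Posterior HOXD genes, which pattern limbs and urogenital tissue, were also higher in C1-sgEED. HOXD11 (ENSG00000128713, chromosome 2, 176104216 to 176109754, plus strand), whose promoter is printed above, had 6.82 CPM in C1-sgEED, 1.505 CPM in C1-sgKMT2D and 1.31 CPM in C1-sgControl. It was 5.21-fold higher (2.86 to 10.3) in C1-sgEED than in C1-sgControl. Its neighbours HOXD10 and HOXD9 were chosen for mention with their values known. HOXD10 had 2.63 CPM in C1-sgEED, 0.287 CPM in C1-sgKMT2D and 0.302 CPM in C1-sgControl (8.71-fold, 2.68 to 44.9, C1-sgEED over C1-sgControl). HOXD9 had 1.27 CPM in C1-sgEED, 0.0716 CPM in C1-sgKMT2D and 0.201 CPM in C1-sgControl (6.29-fold, 1.42 to 57.4). HOXD12 and HOXD13, the next genes of the cluster, had 0 UMIs in all 3 lines. At the other end, HOXD4 had 2.05 CPM in C1-sgEED, 1.505 CPM in C1-sgKMT2D and 1.11 CPM in C1-sgControl, which with 1 CPM added to each level is under the 1.5-fold bound in both comparisons.

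**Figure D1:**
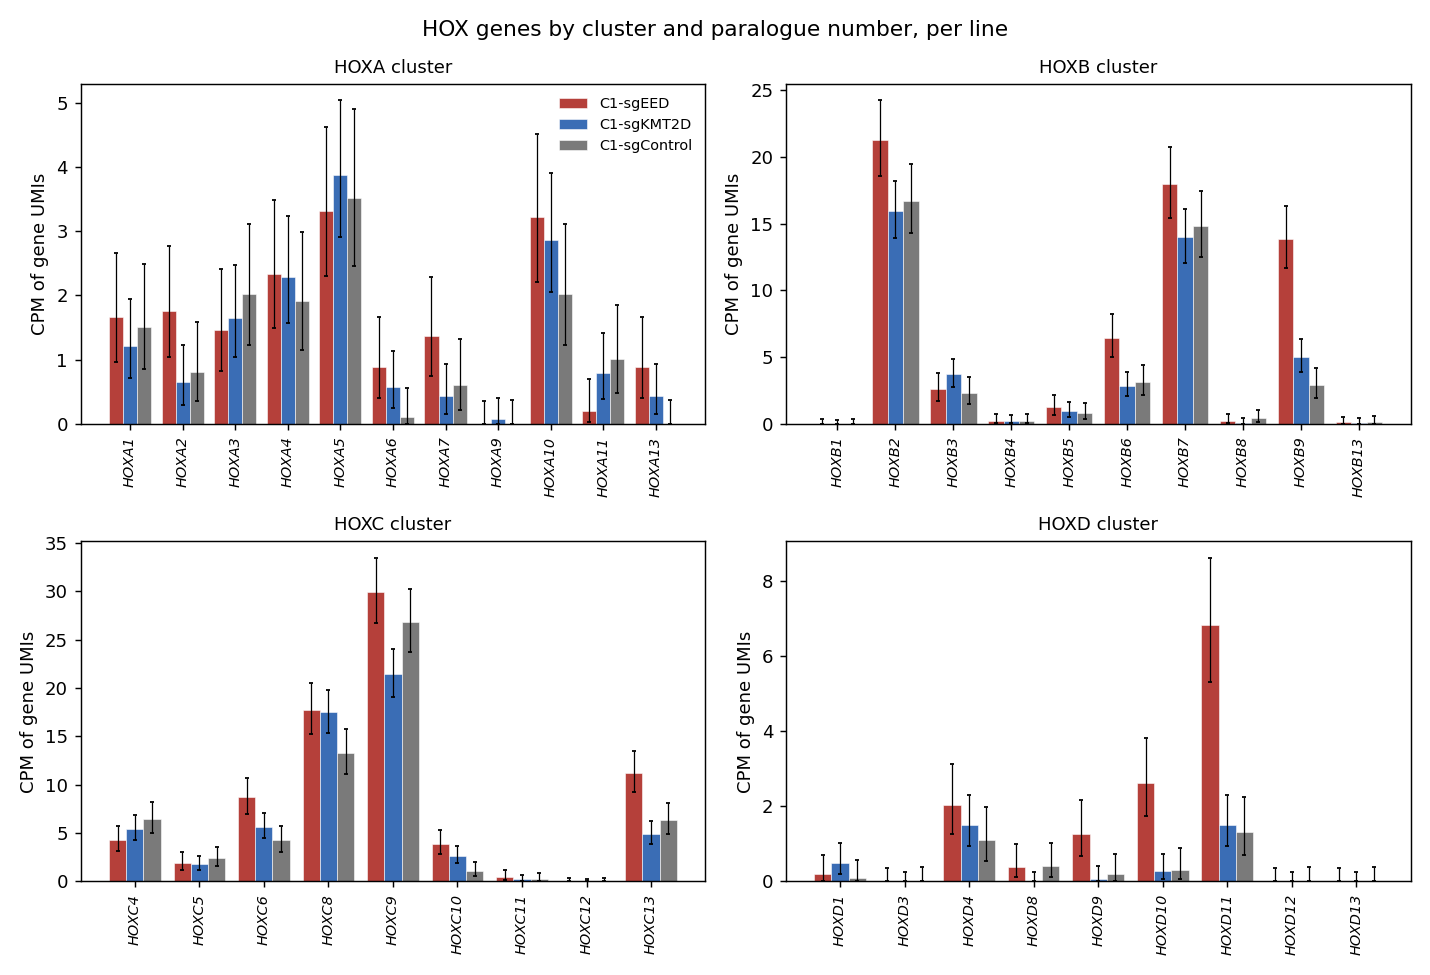
Level of each HOX gene (CPM of gene UMIs, linear axis from 0, a different scale in each panel) in C1-sgEED, C1-sgKMT2D and C1-sgControl, by cluster and in the order of paralogue numbers; bars are sums over 1 line and error bars exact 95% Poisson intervals. HOXB9 and HOXD9 to HOXD11 stand above the other lines in C1-sgEED, HOXC9 is close to 20 to 30 CPM in every line, and HOXD12 and HOXD13 are at 0.

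In the HOXC cluster, HOXC13, a regulator of hair and nail keratins, had 11.2 CPM in C1-sgEED, 4.94 CPM in C1-sgKMT2D and 6.35 CPM in C1-sgControl. It was 1.77-fold higher (1.29 to 2.44) in C1-sgEED than in C1-sgControl. HOXC10 had 3.90 CPM in C1-sgEED, 2.65 CPM in C1-sgKMT2D and 1.11 CPM in C1-sgControl, and it was called higher in both knockouts. HOXC6 had 8.68 CPM in C1-sgEED, 5.66 CPM in C1-sgKMT2D and 4.23 CPM in C1-sgControl, and passed the bound in C1-sgEED. HOXB6, a central gene, had 6.43 CPM in C1-sgEED, 2.87 CPM in C1-sgKMT2D and 3.12 CPM in C1-sgControl (2.06-fold, 1.33 to 3.27, C1-sgEED over C1-sgControl). The HOX genes with the highest levels in the control differed less. HOXC9 had 29.9, 21.4 and 26.8 CPM in C1-sgEED, C1-sgKMT2D and C1-sgControl. HOXB2 had 21.3, 15.98 and 16.7 CPM, HOXB7 17.9, 13.97 and 14.8 CPM, and HOXC8 17.7, 17.5 and 13.3 CPM in the same order. None of these 4 reached 1.5-fold. HOXA genes were low throughout: HOXA5, the only one named by level, had 3.31 CPM in C1-sgEED, 3.87 CPM in C1-sgKMT2D and 3.53 CPM in C1-sgControl. HOXC4 had 4.29, 5.45 and 6.45 CPM in the 3 lines and passed no bound.

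The other 27 HOX genes stayed at or under 3.73 CPM in every line. Among them HOXA2, HOXA6, HOXA13, HOXD9 and HOXD10 were called higher in C1-sgEED, on 9 to 27 UMIs. HOXA11 was the HOX gene called lower, on 2 UMIs in C1-sgEED and 10 in C1-sgControl. Of the members, 24 overlap another gene on the same strand, 23 of them HOX genes, and 54 overlap a gene on the opposite strand. HOXD10 with HOXD11, and HOXB9 with HOXB7, overlap each other, so their single levels are uncertain where the counting could split or discard shared reads. No source used here says whether the counting used strand, so reads of HOXD9, HOXC13 and HOXB6 cannot be told from those of their antisense genes.

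Several organ-specific factors with no UMI in C1-sgControl were read in C1-sgEED. Of the 46 members at 0 UMIs in C1-sgControl, 6 reached 0.5 CPM in C1-sgEED and 0 did in C1-sgKMT2D. Those shares are 13.04% of members at 0 and 1.33% of the 16000 genes at 0 for C1-sgEED, and 0.506% of such genes for C1-sgKMT2D. In the other direction, 30 members had 0 UMIs in C1-sgEED, and 0 of them reached 0.5 CPM in C1-sgControl (0.209% of all genes at 0). The 6 are SOX17, DLX5, PAX2, NKX2-1, NKX6-1 and HOXA13, and all but SOX17 were chosen for mention with their values known.

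SOX17 (ENSG00000164736, chromosome 8, 54457935 to 54460888, plus strand), a factor of endoderm and of blood vessel lining, had 51 UMIs in C1-sgEED, 1 in C1-sgKMT2D and 0 in C1-sgControl. That is 4.97 CPM (3.70 to 6.54) in C1-sgEED, or 16.5 times a floor of 3 counts over C1-sgControl. This multiple leaves out the counting error of the C1-sgEED level. Of the C1-sgEED UMIs, 47 were in VIM-rich cells (10.00 CPM) and 4 in KRT17-rich cells (0.736 CPM). VIM-rich C1-sgKMT2D cells, at 0.170 CPM, held 1 UMI. SOX17 was thus high in 1 range of 1 line. PECAM1, CDH5, VWF and KDR, markers of endothelium, summed to 0.682 CPM in C1-sgEED, 0.430 CPM in C1-sgKMT2D and 0.201 CPM in C1-sgControl, with CDH5 at 0 in all 3 lines.

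DLX5, which acts in facial and bone development, had 20 UMIs in C1-sgEED, 4 in C1-sgKMT2D and 0 in C1-sgControl. Its C1-sgEED level was 6.45 times the same floor of counts over C1-sgControl. This multiple leaves out the counting error of the level and is not a lower limit. PAX2, a kidney factor, had 12, 0 and 0 UMIs in C1-sgEED, C1-sgKMT2D and C1-sgControl. NKX2-1, the thyroid and lung factor, had 11, 1 and 0 UMIs in that order. NKX6-1, of pancreatic beta cells and the ventral neural tube, had 10, 2 and 0 UMIs. HOXA13, of the limb tips and genital tract, had 9, 6 and 0 UMIs. PAX2 and NKX2-1 were read almost only in VIM-rich C1-sgEED cells (11 of 12 and 11 of 11 UMIs), while HOXA13 had 7 of its 9 UMIs in KRT17-rich cells. DLX5 was spread over both ranges, with 2.34 CPM in VIM-rich and 1.66 CPM in KRT17-rich C1-sgEED cells.

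These transcripts were sparse, and so few UMIs cannot show whether the genes were active in the same or in separate cells. The 113 UMIs of the 6 genes fell in 106 of 2338 C1-sgEED cells (4.53%, 3.73% to 5.46%), and 3 of those cells had UMIs of more than 1 of the genes. In C1-sgKMT2D, which was not used to pick them, 14 of 2348 cells had one (0.596%, 0.326% to 0.998%). The genes were picked for 0 UMIs in C1-sgControl and 0.5 CPM or more in C1-sgEED, so the 0 of 1720 C1-sgControl cells and an excess in C1-sgEED are set by that choice and are given as a description. C1-sgEED had the shallowest cells of the 3 lines. All lines were in 1 library and shared its free RNA. Within C1-sgEED, 83 of 1195 VIM-rich cells (6.95%) and 23 of 1111 KRT17-rich cells (2.07%) held such a UMI, with median depths of 3478 and 4403 UMIs. After thinning to 2000 UMIs, SOX17 alone was seen in 20 of 1089 VIM-rich C1-sgEED cells (1.84%), 0 of 1098 VIM-rich C1-sgKMT2D cells and 0 of 1558 KRT17-rich C1-sgControl cells. Without thinning, the numbers were 44 of 1195, 1 of 1164 and 0 of 1633. The thinning left out 106, 66 and 75 shallower cells of those groups.

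PAX6 (ENSG00000007372, chromosome 11, 31784779 to 31818062, minus strand), the eye and neural factor, was near 0 but not at 0 in the control. It had 32 UMIs (3.12 CPM) in C1-sgEED, 3 (0.215 CPM) in C1-sgKMT2D and 3 (0.302 CPM) in C1-sgControl, and was 10.3-fold higher (3.23 to 52.7) in C1-sgEED than in C1-sgControl. VIM-rich C1-sgEED cells had 5.53 CPM and KRT17-rich ones 0.920 CPM. SOX2, a factor of stem cells and neural progenitors chosen for mention with its values known, had 9 UMIs in C1-sgEED and 1 each in C1-sgKMT2D and C1-sgControl. The 5 neural markers summed to 8.77 CPM in C1-sgEED, 1.00 CPM in C1-sgKMT2D and 2.01 CPM in C1-sgControl. MAP2 made up 8.29 CPM of the C1-sgEED sum, and TUBB3, NEUROD1, GFAP and SNAP25 were each under 0.3 CPM in every line; whether the MAP2 and PAX6 UMIs move together was not tested. Immune markers summed to at most 1.46 CPM in a line, with PTPRC, CD3E and LYZ among those at 0.

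**Figure D2:**
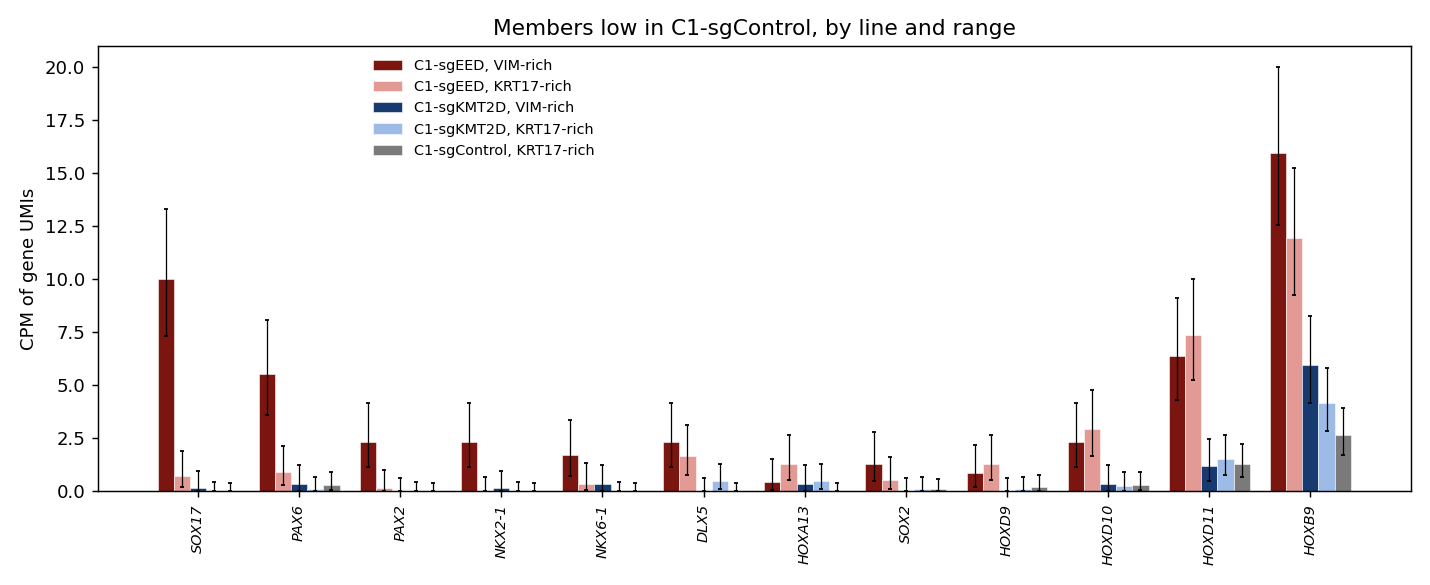
Level (CPM of gene UMIs, linear axis from 0) of 12 members that were low in C1-sgControl, in VIM-rich and KRT17-rich cells of C1-sgEED and C1-sgKMT2D and in KRT17-rich cells of C1-sgControl; error bars are exact 95% Poisson intervals, and members other than SOX17, PAX6, HOXD11 and HOXB9 were chosen after their values were seen. SOX17 reaches 10.00 CPM and PAX6 5.53 CPM in VIM-rich C1-sgEED cells, while HOXD11 and HOXB9 also stand at 7.36 and 12.0 CPM in KRT17-rich C1-sgEED cells.

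SIX2, TBX2, NKX2-5, HOXC10 and HOXB9 were called higher than in C1-sgControl in both knockouts, which are set against the same control cells. How many of all genes were called higher in both was not computed. SIX2 (ENSG00000170577, chromosome 2, 45005161 to 45009430, minus strand), which keeps kidney progenitors undifferentiated, had 2.63 CPM (1.73 to 3.83) in C1-sgEED, 3.94 CPM (2.97 to 5.13) in C1-sgKMT2D and 0.403 CPM (0.110 to 1.03) in C1-sgControl. Both knockouts lie above the control beyond counting error, by 6.53-fold (2.28 to 25.7) in C1-sgEED and 9.78-fold (3.61 to 37.2) in C1-sgKMT2D. In VIM-rich cells SIX2 stood at 4.47 CPM for C1-sgEED and 6.30 CPM for C1-sgKMT2D, and in KRT17-rich cells 1.10 and 2.26 CPM. SIX4 had 5.26 CPM in C1-sgEED, 7.24 CPM in C1-sgKMT2D and 4.43 CPM in C1-sgControl, and of its ratios to the control that of C1-sgKMT2D passed the bound. SIX5 had 6.43, 7.67 and 7.05 CPM in C1-sgEED, C1-sgKMT2D and C1-sgControl and passed it in neither.

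TBX3 (ENSG00000135111, chromosome 12, 114670254 to 114684164, minus strand), the T-box repressor needed to form the mammary gland, had 28.7 CPM in C1-sgEED, 13.7 CPM in C1-sgKMT2D and 18.3 CPM in C1-sgControl. Its higher C1-sgEED level lay in VIM-rich cells, with 46.8 CPM against 13.4 CPM in KRT17-rich C1-sgEED cells (3.48-fold, 2.66 to 4.60). VIM-rich and KRT17-rich C1-sgKMT2D cells had 15.7 and 11.8 CPM, and KRT17-rich C1-sgControl cells 18.0 CPM. Among VIM-rich cells TBX3 was 2.99-fold lower (2.33 to 3.85) in C1-sgKMT2D than in C1-sgEED. Its close relative TBX2 was low, with 2.05 CPM in C1-sgEED, 1.36 CPM in C1-sgKMT2D and 0.504 CPM in C1-sgControl, and was called higher in both. TBX18, of the epicardium and ureter, had 1.95 CPM in C1-sgEED, 2.94 CPM in C1-sgKMT2D and 1.01 CPM in C1-sgControl, and was called higher in C1-sgKMT2D. Both stay under the 5 CPM used to choose members for naming. The heart factor NKX2-5 had 13.5 CPM in C1-sgEED, 13.04 CPM in C1-sgKMT2D and 7.15 CPM in C1-sgControl. It was 1.88-fold higher (1.40 to 2.54) in C1-sgEED and 1.82-fold higher (1.38 to 2.43) in C1-sgKMT2D than in C1-sgControl.

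The members with the highest levels in the control included SOX genes that were lower in both knockouts. SOX4 (ENSG00000124766, chromosome 6, 21592768 to 21598619, plus strand), a progenitor factor also known for its part in epithelial-mesenchymal transition, had 87.4 CPM in C1-sgEED, 103 CPM in C1-sgKMT2D and 157 CPM in C1-sgControl. SOX9 (ENSG00000125398, chromosome 17, 72121020 to 72126420, plus strand) had 37.2 CPM in C1-sgEED, 33.6 CPM in C1-sgKMT2D and 63.6 CPM in C1-sgControl. SOX15 had 23.3 CPM in C1-sgEED, 20.8 CPM in C1-sgKMT2D and 35.5 CPM in C1-sgControl. The control was above both knockouts beyond counting error for all 3 genes, and C1-sgEED was 1.80-fold (SOX4), 1.71-fold (SOX9) and 1.52-fold (SOX15) lower.

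SOX15 and SOX9 also differed between the ranges of both knockout lines. SOX15 had 4.89 CPM in VIM-rich and 39.4 CPM in KRT17-rich C1-sgEED cells, an 8.05-fold (5.23 to 12.98) lower level in VIM-rich cells. C1-sgKMT2D cells had 6.64 and 31.6 CPM in the 2 ranges (4.75-fold lower, 3.38 to 6.84). SOX9 was 3.53-fold lower (2.73 to 4.62) in VIM-rich than in KRT17-rich C1-sgEED cells and 2.02-fold lower (1.64 to 2.49) in C1-sgKMT2D. Within KRT17-rich cells alone, SOX15 had 39.4 CPM in C1-sgEED, 31.6 CPM in C1-sgKMT2D and 35.8 CPM in C1-sgControl. SOX9 had 55.6, 42.9 and 63.9 CPM there, and SOX4 118, 112 and 158 CPM. None of these passed the bound; the nearest was SOX9, 1.49-fold lower (1.30 to 1.71) in C1-sgKMT2D than in C1-sgControl. So SOX genes called lower over whole lines were not called within KRT17-rich cells, but missing the bound does not mean an equal level. SOX4 and SOX9 stood below C1-sgControl in KRT17-rich cells of both knockouts, and SOX15 in those of C1-sgKMT2D alone. The share of such cells was 47.5% in C1-sgEED and 94.9% in C1-sgControl, and the part of these shares in the whole-line ratios was not tested. SOX4 kept 91.4 CPM in VIM-rich C1-sgKMT2D cells against 51.5 CPM in VIM-rich C1-sgEED cells. Of the less abundant SOX genes, SOX7 had 6.14 CPM in C1-sgEED, 5.37 CPM in C1-sgKMT2D and 8.16 CPM in C1-sgControl. SOX6 had 9.55, 7.38 and 7.76 CPM in that order, SOX13 4.48, 3.87 and 4.43 CPM, and SOX12 5.26, 4.01 and 3.12 CPM. Of these 4, SOX12 passed the bound, in C1-sgEED.

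**Figure D3:**
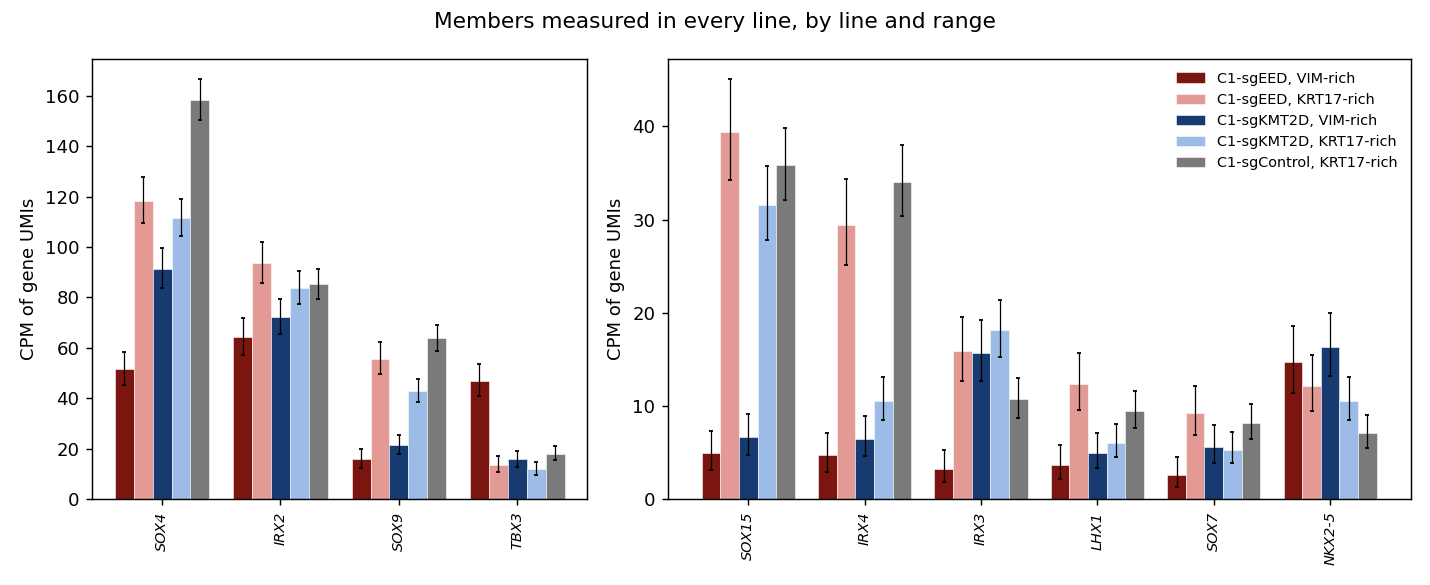
Level (CPM of gene UMIs, linear axis from 0, different scales) of 10 members with UMIs in every line, in VIM-rich and KRT17-rich cells of C1-sgEED and C1-sgKMT2D and in KRT17-rich cells of C1-sgControl; error bars are exact 95% Poisson intervals. SOX15 and SOX9 are low in VIM-rich cells of both knockouts, IRX3 is low only in VIM-rich C1-sgEED cells (3.19 CPM), and TBX3 is high only there (46.8 CPM).

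Iroquois (IRX) genes are homeobox genes that lie in 2 clusters, with IRX1, IRX2 and IRX4 on chromosome 5 and IRX3, IRX5 and IRX6 on chromosome 16. IRX2 (ENSG00000170561, chromosome 5, 2745845 to 2751662, minus strand), whose promoter is printed above, had 79.5 CPM in C1-sgEED, 79.3 CPM in C1-sgKMT2D and 85.4 CPM in C1-sgControl, so it differed by less than 1.1-fold. Its cluster neighbour IRX4, known from the heart ventricle, had 18.2 CPM (15.7 to 21.0) in C1-sgEED, 8.88 CPM (7.39 to 10.6) in C1-sgKMT2D and 33.7 CPM (30.2 to 37.6) in C1-sgControl. All 3 intervals are apart, and the level was 1.85-fold lower in C1-sgEED and 3.80-fold lower in C1-sgKMT2D than in C1-sgControl. In KRT17-rich cells IRX4 had 29.5 CPM in C1-sgEED, 10.6 CPM in C1-sgKMT2D and 34.0 CPM in C1-sgControl, a 3.22-fold (2.53 to 4.15) lower level in C1-sgKMT2D than in C1-sgControl. In VIM-rich cells it had 4.68 CPM for C1-sgEED and 6.47 CPM for C1-sgKMT2D. The lower IRX4 level of C1-sgEED was thus in VIM-rich cells, and that of C1-sgKMT2D in both ranges. IRX1, the third gene of that cluster, had 8.48, 11.2 and 11.9 CPM in the 3 lines.

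IRX3 had 9.85 CPM in C1-sgEED, 17.1 CPM in C1-sgKMT2D and 10.8 CPM in C1-sgControl, and was the 1 member higher in C1-sgKMT2D than in C1-sgEED. Among 180 chromosome 16 genes of at least 20 CPM, 95.6% were below 0 on the log2 ratio of C1-sgKMT2D over C1-sgControl, with a median of -0.66, while IRX3 on the same chromosome was at 0.62; the part of the chromosome in the levels of its IRX genes was not tested. IRX5 had 7.41, 7.16 and 10.1 CPM in C1-sgEED, C1-sgKMT2D and C1-sgControl. Within C1-sgEED, IRX3 had 3.19 CPM in VIM-rich and 15.8 CPM in KRT17-rich cells (4.96-fold lower, 2.85 to 9.25), but within C1-sgKMT2D 15.7 and 18.1 CPM. LHX1, a kidney and head organiser factor, had 8.58 CPM in C1-sgEED, 5.52 CPM in C1-sgKMT2D and 9.87 CPM in C1-sgControl, and MSX1, of mesenchyme and mammary buds, 11.02, 6.38 and 7.66 CPM. LHX6 was named only through the 71 VIM-rich control cells and had 1.75, 1.58 and 2.32 CPM in the 3 lines.

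PAX8, of the thyroid and kidney, was called lower in both knockouts on few UMIs, with 7 in C1-sgEED, 8 in C1-sgKMT2D and 20 in C1-sgControl. DLX4 was called lower in C1-sgKMT2D, on 7 UMIs against 16 in C1-sgControl. Apart from the members named here, LHX, DLX, PAX, NKX and TBX genes stayed at or under 3.22 CPM in every line.

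Between ranges of the same line, 21 members were higher in VIM-rich than in KRT17-rich C1-sgEED cells (background 6.34%) and 17 lower (background 8.16%). Within C1-sgKMT2D 8 were higher (background 4.5%) and 7 lower (background 3.43%). Without mitochondrial and ribosomal protein genes in the total 15 were higher there (background 6.37%). The higher side in C1-sgEED held SOX17, PAX6, TBX3, HOXD4, PAX2, SIX2, TBX18 and DLX1 among others. With the bound of 1 CPM, 17 of 59 members were higher (background 13.6%) and 12 lower (background 17%) within C1-sgEED, and 8 of 46 higher (background 9.6%) and 6 lower (background 7.72%) within C1-sgKMT2D. SIX2, TBX18, TBX2, HOXA5, HOXC6 and HOXC10 were called higher in VIM-rich cells of both lines. SOX15, SOX9, IRX4, LHX6 and DLX2 were called lower in both. The share of all genes called the same way in both lines was not computed, so these overlaps are not read as a trait of the members. HOXB2 had 28.7 CPM in VIM-rich and 14.5 CPM in KRT17-rich C1-sgEED cells, but 16.3 and 15.7 CPM in the 2 ranges of C1-sgKMT2D. SIX5 had 11.1 and 5.28 CPM in VIM-rich and KRT17-rich C1-sgKMT2D cells, but 5.74 and 7.18 CPM in those of C1-sgEED. SOX7 had 2.55 and 9.20 CPM in the 2 ranges of C1-sgEED and 5.62 and 5.28 CPM in those of C1-sgKMT2D. The difference between the lines in these range effects has no replicate and was not tested.

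HOXD9 to HOXD11 and HOXB9 were not called higher or lower between the ranges of C1-sgEED, which does not mean an equal level. HOXD11 had 6.38 CPM in VIM-rich and 7.36 CPM in KRT17-rich C1-sgEED cells, and HOXB9 15.95 and 12.0 CPM. In KRT17-rich cells alone, HOXD11 was 5.79-fold higher (2.98 to 12.1) and HOXB9 4.52-fold higher (2.81 to 7.48) in C1-sgEED than in C1-sgControl. Cells with a HOXB9 UMI were 63 of 1111 KRT17-rich C1-sgEED cells (5.67%) and 23 of 1633 KRT17-rich C1-sgControl cells (1.41%), with median depths of 4403 and 5670 UMIs. After thinning to 2000 UMIs they were 28 of 1057 (2.65%) and 10 of 1558 (0.642%). The C1-sgEED share was the higher one although its cells were shallower.

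Over KRT17-rich cells, 18 members were higher in C1-sgEED than in C1-sgControl (background 5.95%) and 2 lower (background 2.49%). For C1-sgKMT2D over C1-sgControl, 5 were higher (background 2.79%) and 3 lower (background 6.25%). With stricter limits on cells 6 were higher (background 3.15%) and 9 lower (background 6.15%). All genes also lean to the lower side in this comparison, so these counts are not read as a result about the members. With the bound of 1 CPM, 11 of 48 members were higher in C1-sgEED (background 11.9%) and 1 lower (background 5.45%), and 2 of 47 higher in C1-sgKMT2D (background 6.43%) and 3 lower (background 14.8%). In KRT17-rich C1-sgEED cells the 9 mesenchymal markers other than VIM summed to 204 CPM, against 148 CPM in KRT17-rich C1-sgControl cells. Of the 10 markers with VIM, 6 were higher and 0 lower there (FBN1, COL3A1, COL6A1, COL6A2, COL6A3 and DCN; median log2 ratio 0.75). The 9 epithelial markers other than KRT17 summed to 7792 and 10017 CPM in those cells. The part of these markers in the members' counts was not tested. Among VIM-rich cells, 8 members were higher in C1-sgKMT2D than in C1-sgEED (background 5.05%) and 23 lower (background 8.93%). SOX17 (0.170 against 10.00 CPM), PAX6 (0.340 against 5.53 CPM), HOXD11 (1.19 against 6.38 CPM) and TBX3 were on the lower side, and IRX3, SOX7, SIX5, SIX4 and SOX4 on the higher side. With the bound of 1 CPM, 6 of 55 members were higher (background 10.3%) and 17 lower (background 19.4%).

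**Figure D4:**
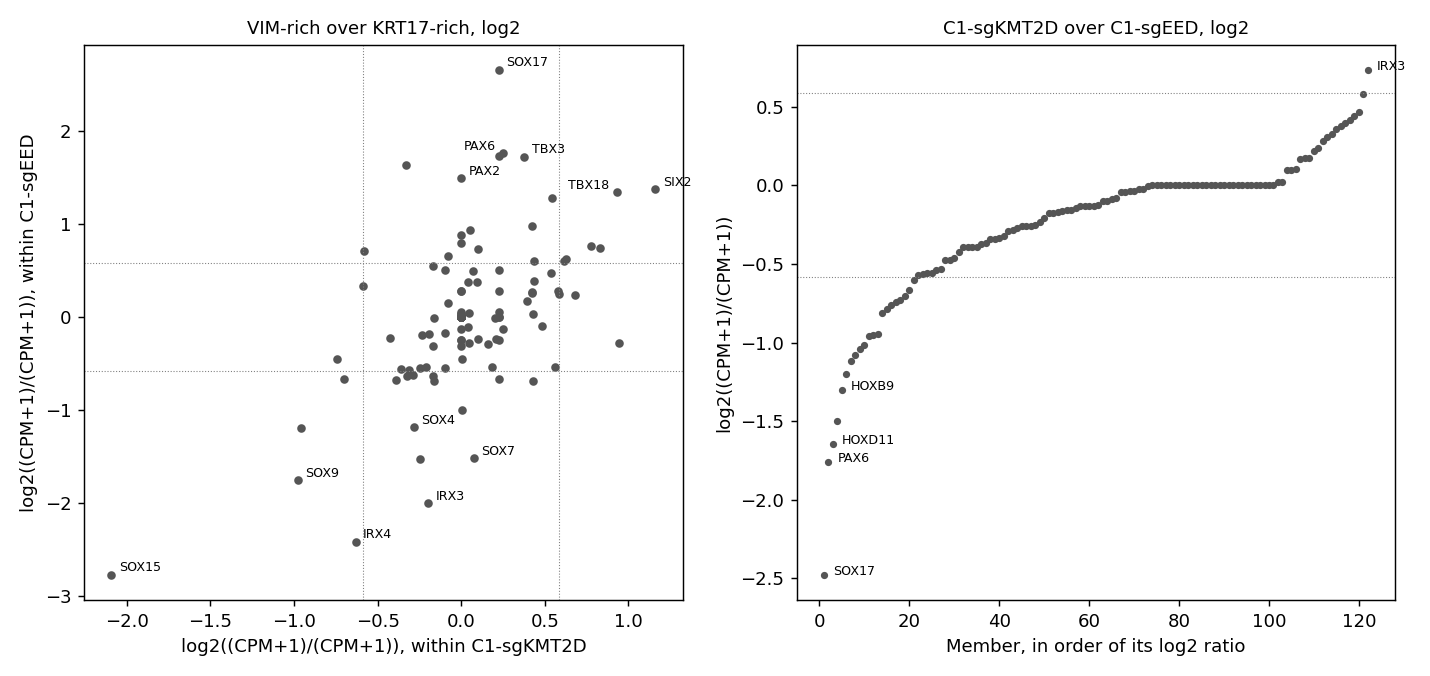
Left, log2((CPM + 1)/(CPM + 1)) of VIM-rich over KRT17-rich cells for each of the 122 members, within C1-sgEED (vertical axis) and within C1-sgKMT2D (horizontal axis); right, the same ratio of C1-sgKMT2D over C1-sgEED over whole lines, with members in order of the ratio; dotted lines mark 1.5-fold. SOX15 is low in VIM-rich cells of both lines, SOX17 stands high in C1-sgEED alone, and on the right 21 members lie below the lower line and IRX3 above the upper one.

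Other regulators of development came from a list of 79 measured genes that the symbol rule leaves out. Many are themselves homeobox genes, among them MEIS2, PITX1, EMX2 and GSC, and EOMES and T are T-box genes. The list is therefore no contrast from unrelated families. Of its genes, 12 were higher (15.2%, background 6.64%) and 2 lower (2.53%, background 3.2%) in C1-sgEED than in C1-sgControl. In C1-sgKMT2D 5 were higher (6.33%, background 3.65%) and 2 lower (2.53%, background 5.97%). FOXC2, a mesenchymal forkhead factor, had 29.6 CPM in C1-sgEED, 25.1 CPM in C1-sgKMT2D and 5.94 CPM in C1-sgControl. GATA3, which maintains luminal breast cells, had 14.2 CPM in C1-sgEED, 5.45 CPM in C1-sgKMT2D and 6.45 CPM in C1-sgControl. TWIST1, a driver of epithelial-mesenchymal transition, had 13.1 CPM in C1-sgEED, 27.7 CPM in C1-sgKMT2D and 8.86 CPM in C1-sgControl, and passed the bound in C1-sgKMT2D. TFAP2A, an epithelial and neural crest factor, was lower in both, with 68.5, 82.0 and 138 CPM in C1-sgEED, C1-sgKMT2D and C1-sgControl. MEIS2 had 19.1, 15.3 and 10.98 CPM, FOXD1 22.8, 10.2 and 16.2 CPM, and PITX1 66.5, 48.4 and 50.3 CPM in those lines. FOXA2 had 15.2, 25.5 and 23.3 CPM, FOXC1 12.6, 13.8 and 13.3 CPM, and TFAP2C 7.31, 12.1 and 7.96 CPM. CDKN2A, a cell-cycle inhibitor and well-known Polycomb target, had 353 CPM in C1-sgEED, 464 CPM in C1-sgKMT2D and 321 CPM in C1-sgControl, and its neighbour CDKN2B 24.3, 27.8 and 27.5 CPM.

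HOX proteins bind DNA with PBX and MEIS partners. Of 9 such partners, 3 were higher and 0 lower in C1-sgEED, and 0 passed the bound in C1-sgKMT2D. The backgrounds were 6.64% higher and 3.2% lower in C1-sgEED, and 3.65% and 5.97% in C1-sgKMT2D. Over genes averaging at least 1 CPM they were 13.9% and 7.59% in C1-sgEED, and 8.26% and 14.6% in C1-sgKMT2D. MEIS3 had 36.1 CPM in C1-sgEED, 8.53 CPM in C1-sgKMT2D and 6.95 CPM in C1-sgControl. Of 11 measured PRC2 subunits and partners, EZH2 and PHF19 were higher and JARID2 lower in C1-sgEED, and PHF19 was higher in C1-sgKMT2D. The same backgrounds apply, and lists of 9 and 11 genes are too short to read a share from. EZH2 had 26.4 CPM in C1-sgEED, 19.8 CPM in C1-sgKMT2D and 14.4 CPM in C1-sgControl. PHF19 had 100.5, 119 and 60.4 CPM in those lines, and SUZ12 48.6, 52.5 and 43.9 CPM.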

How the data were processed

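The authors deposited whole-number UMI counts for each barcode and each gene or hashtag. Cell Ranger 3.0.2 on GRCh38 made them, per the submitters' processing notes, and the file header gives the same version; annotation and barcode filter are not given in the sources. A 3' count reads transcript ends, so edits and isoforms further upstream are not seen. Barcodes with at least 500 genes and at most 20% mitochondrial UMIs were kept (9193 of 10336). Hashtags were called at the crossing point of 2 Gaussian components fitted to log10 counts; 827 positive for several hashtags (9.00%) were removed as doublets, as were 26 positive for none. Doublets within a line were not removed. Hashtag 2 has no line in the labels and enters none of the comparisons between lines or ranges. Its levels are set beside C1-sgControl only in the closing sections.

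UMIs were summed per group and scaled to CPM. Sums have exact Poisson, ratios exact conditional binomial and shares exact Clopper-Pearson intervals; with 1 sample per line no test was made. A level set against 0 UMIs is given as a multiple of 3 counts over that group. Such a multiple leaves out the counting error of the level and is not a lower limit. The members, gene lists and ranges were chosen with earlier results of these data known. Members are named at 5 CPM or more in a line or range of at least 50 cells (35 members), and genes of the other lists at 10 CPM; all others named were chosen after their values were seen. All 122 members matched GENCODE v29 by gene identifier for positions. The counting was tested on simulated data. Python 3.11.15, numpy 2.4.6, scipy 1.17.1, pandas 2.3.3, scikit-learn 1.9.0 and matplotlib 3.10.9 were used. Alternatives covered the total, the pseudocount, filters, the fold, hashtag calls, ranges and thinning. Some genes that enter the counts are not reported here by name.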

Additional observations from a re-analysis of the deposited data

Results flagged for a closer look

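Cells with hashtag 2, which the labels tie to no line and no comparison uses, had 2 members at least 1.5-fold above the level in C1-sgControl, with 1 CPM added to each level. TBX3 was at 39.035 CPM in these 1934 cells, against 18.3 CPM in C1-sgControl. NKX2-8 was at 1.59 CPM, against 0.201 CPM in C1-sgControl. Only the higher side was screened, and other members, SOX4 and IRX4 among them, were below C1-sgControl in these cells. The share of all genes above the bound was not computed, so the count is not read as a result about the members.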

How the results depend on the processing

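No called log2 ratio of the named members changed sign under the alternatives run. Of 132 counts, 94 stayed within 1.5 times the value given, and 46 of 2435 log2 ratios moved by more than their counting interval. The 5 members higher and 3 lower in KRT17-rich C1-sgKMT2D over C1-sgControl became more lower than higher under 5 alternatives, with 2 and 3 at the bound of 1 CPM, 1 and 2 at the 2-fold bound, 6 and 9 with stricter cells, 6 and 10 with ranges 3-fold apart and 5 and 6 with ranges from the marker lists. The shares of all genes higher and lower were 6.43% and 14.8%, 0.549% and 2.07%, 3.15% and 6.15%, 3.34% and 7.3%, and 2.75% and 5.98% in that order. All genes thus leaned lower in each of the 5 as well, and in the main setting (2.79% and 6.25%). Equal counts included those from the bound of 1 CPM in C1-sgKMT2D over C1-sgControl (7 and 7) and from stricter cells in VIM-rich over KRT17-rich C1-sgEED cells (18 and 18). Other equal counts are among those given below. In parentheses is the share of all genes called under the same alternative. Without mitochondrial and ribosomal protein genes in the total, C1-sgKMT2D over C1-sgControl had 14 members higher (5.12%) beside 7 lower (6.19%), VIM-rich over KRT17-rich C1-sgKMT2D cells 15 higher (6.37%) beside 8 lower (4.18%), KRT17-rich C1-sgKMT2D over C1-sgControl 8 higher (3.92%) and 6 lower (6.72%), and C1-sgKMT2D over C1-sgEED 3 higher (2.59%); medians over genes averaging 1 CPM or more then moved by at most 0.12 (from -0.10 to 0.02 for VIM-rich C1-sgKMT2D over C1-sgEED). With a pseudocount of 0.5 CPM, C1-sgKMT2D over C1-sgControl had 15 higher (5.1%) and 11 lower (7.75%), KRT17-rich C1-sgKMT2D over C1-sgControl 8 higher (4.48%) and 8 lower (8.1%), C1-sgKMT2D over C1-sgEED 3 higher (2.4%), and VIM-rich over KRT17-rich C1-sgKMT2D cells 18 higher (6.86%). With genes of at least 1 CPM only, fewer members enter: C1-sgEED over C1-sgControl had 16 higher (13.9%), KRT17-rich C1-sgEED over C1-sgControl 11 higher (11.9%) and 1 lower (5.45%), and KRT17-rich C1-sgKMT2D over C1-sgControl 2 higher (6.43%). At a 2-fold bound, which fewer members can pass, C1-sgEED over C1-sgControl had 11 higher (2.37%) and 0 lower (0.878%), C1-sgKMT2D over C1-sgControl 1 (0.965%) and 1 (2.11%), C1-sgKMT2D over C1-sgEED 0 (0.315%) and 10 (2.81%), VIM-rich over KRT17-rich cells 9 (2.33%) and 8 (3.53%) in C1-sgEED and 1 (1.4%) and 1 (1.25%) in C1-sgKMT2D. At that bound KRT17-rich C1-sgEED over C1-sgControl had 7 (1.78%) and 0 (0.433%), KRT17-rich C1-sgKMT2D over C1-sgControl 1 higher (0.549%), and VIM-rich C1-sgKMT2D over C1-sgEED 1 (1.45%) and 14 (3.47%). As a mean over cells, C1-sgKMT2D over C1-sgEED had 3 higher (1.96%) and KRT17-rich C1-sgKMT2D over C1-sgControl 6 lower (6.84%). With at least 1000 genes and at most 10% mitochondrial UMIs, C1-sgKMT2D over C1-sgEED had 3 higher (1.88%), KRT17-rich C1-sgEED over C1-sgControl 4 lower (2.73%) and KRT17-rich C1-sgKMT2D over C1-sgControl 9 lower (6.15%). With KRT17 and VIM at least 3-fold apart, VIM-rich over KRT17-rich C1-sgKMT2D cells had 13 higher (7.37%) and KRT17-rich C1-sgKMT2D over C1-sgControl 10 lower (7.3%). With ranges from the marker lists, KRT17-rich C1-sgKMT2D over C1-sgControl had 6 lower (5.98%). Where no reason is given, the cause was not tested. Shares of cells depend on depth, and 199 of 258 moved with no thinning or thinning to 5000 UMIs. Below about 0.3 CPM a line's level rests on 3 UMIs or fewer, and differences there are not detectable at this depth. No paired analysis was possible because each line is 1 sample.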

Other observations

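Hashtag 2 cells carried their own pattern of these factors; what they are is not given in the labels. The 1934 cells held 11297540 UMIs, 1319 of them were VIM-rich and 580 KRT17-rich, and 45 members had more than 3 UMIs after thinning to 9927122 UMIs. IRX2 (84.7 CPM), SOX4 (49.7 CPM), SOX15 (43.0 CPM), TBX3 (39.035 CPM), SOX9 (25.8 CPM), HOXB2 (21.9 CPM) and HOXC9 (21.8 CPM) had the highest levels. HOXD11, SOX17, PAX2 and NKX2-1 had 0 UMIs. HOXB9 was at 0.177 CPM, HOXB7 at 3.01 CPM, HOXB6 at 0.177 CPM, IRX4 at 1.59 CPM, IRX5 at 0.974 CPM, NKX2-5 at 0.443 CPM and SIX2 at 0.354 CPM. TBX3 was close in both ranges, with 39.9 CPM in VIM-rich and 37.3 CPM in KRT17-rich cells.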
